A study of Mus musculus with 8 samples.

Results

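The genes of TGF-beta, BMP and activin signalling were followed through 4 stages of mouse male germ cells. They were taken by symbol and not by a measured value, although earlier results of these data were known. Included were the numbered bone morphogenetic proteins and growth differentiation factors, the 3 transforming growth factor beta genes, their receptors, the activin receptors, the Smads, and Fst, Nodal, Nog, Smurf1 and Smurf2. The array annotation gave 96 probe sets for 44 such genes out of 18193 genes in all, and 35 of the 44 were bright enough to be tested among 14155 genes. The groups were type A spermatogonia and type B spermatogonia, which divide by mitosis, pachytene spermatocytes, which pair and recombine their chromosomes in meiosis, and round spermatids, which have completed meiosis. Each group had 2 arrays of the Mouse 430 2.0 design, made from total RNA of mice of the strain BL/6-129, with no treatment or allele named in the labels. Every array came from its own cell preparation. The sources used here do not give the age of the mice, the way the cells were purified or their purity.

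Ligands of this family bind a pair of type I and type II receptor kinases at the cell surface. The type I kinase phosphorylates receptor Smads, of which Smad1, Smad5 and Smad9 serve BMP receptors and Smad2 and Smad3 serve TGF-beta, activin and nodal receptors. These join Smad4 and enter the nucleus, while Smad6, Smad7, the Smurf ubiquitin ligases and secreted traps such as follistatin and noggin damp the signal. BMPs are known for specifying germ cells in the early embryo, and in the testis the family is known for the exchange between Sertoli cells and spermatogonia.

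Signal is the linear probe set intensity deposited by the authors, scaled so that the trimmed mean, leaving out the dimmest and brightest 2% of probe sets, was 125.0 on every array. A change is a difference in log2(signal + 16) between group means, written with the standard error of the limma fit and n = 2 arrays a group. This scale understates the change of a dim gene. A gene was called at an adjusted p under 0.05 over all genes tested. Each gene is represented by its brightest probe set unless a probe set is named. In bulk preparations, fewer cells of a type and less RNA per cell cannot be told apart.

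Markers of other cells were present in these preparations. Over 14 peritubular, stromal and endothelial genes, signals on the 4 spermatogonial arrays summed to between 12368.0 and 18971.3. Those on the 4 later arrays summed to between 1084.7 and 1529.6. Col1a1, a collagen chain of stromal cells, read 1210.2 to 1779.9 on the former and 2.1 to 32.9 on the latter, close to 0 in pachytene cells. The 14 Sertoli cell markers summed to 11834.5 to 16209.7 in type A, 9618.5 to 12945.1 in type B, 5319.9 to 7434.8 in pachytene cells and 1583.9 to 1771.4 in spermatids. The 5 Leydig cell markers on the array summed to 790.8 to 1615.7 in spermatogonia, 573.1 to 1031.8 in pachytene cells and 135.7 to 137.7 in spermatids. The 10 macrophage and blood cell markers ran from 664.5 to 1323.5 on spermatogonial arrays, 255.7 to 298.8 in pachytene cells and 577.3 to 580.6 in spermatids. With no detection calls or background measure at hand, low sums could not be told apart from background. The part these cells play in the changes of the signalling genes was not tested.

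In the germ cell markers, type B replicate 2 stood apart from its replicate. The pachytene marker sum of type B replicate 2 was 9620.4 and that of replicate 1 was 1126.2, against 862.5 to 1067.4 in type A and 21046.2 to 22081.0 in pachytene cells. It was highest in spermatids, at 24387.4 to 24404.9. Round spermatid markers summed to 2007.8 and 141.0 on the same pair of arrays, against 33756.7 to 38803.9 in spermatids. Undifferentiated spermatogonial markers summed to 3684.6 to 3746.9 in type A, 1987.7 to 2691.5 in type B, 1869.6 to 1996.2 in pachytene cells and 581.2 to 658.7 in spermatids. Differentiating spermatogonial markers did not keep that order, with 3683.3 to 4653.6 in spermatogonia, 2025.2 to 2356.0 in pachytene cells and 3299.8 to 3406.0 in spermatids. The SD of the difference between the type B replicates was 0.757 over all genes but 0.292 over the signalling genes. In the other groups it was 0.336 to 0.432 over all genes and 0.29 to 0.433 over the signalling genes. An 18S ribosomal RNA control read between 2657.9 and 3450.5 before meiosis and between 120.1 and 276.3 from pachytene on, and any effect of labelling or RNA quality along that split cannot be told apart from stage.

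**Figure D1:**
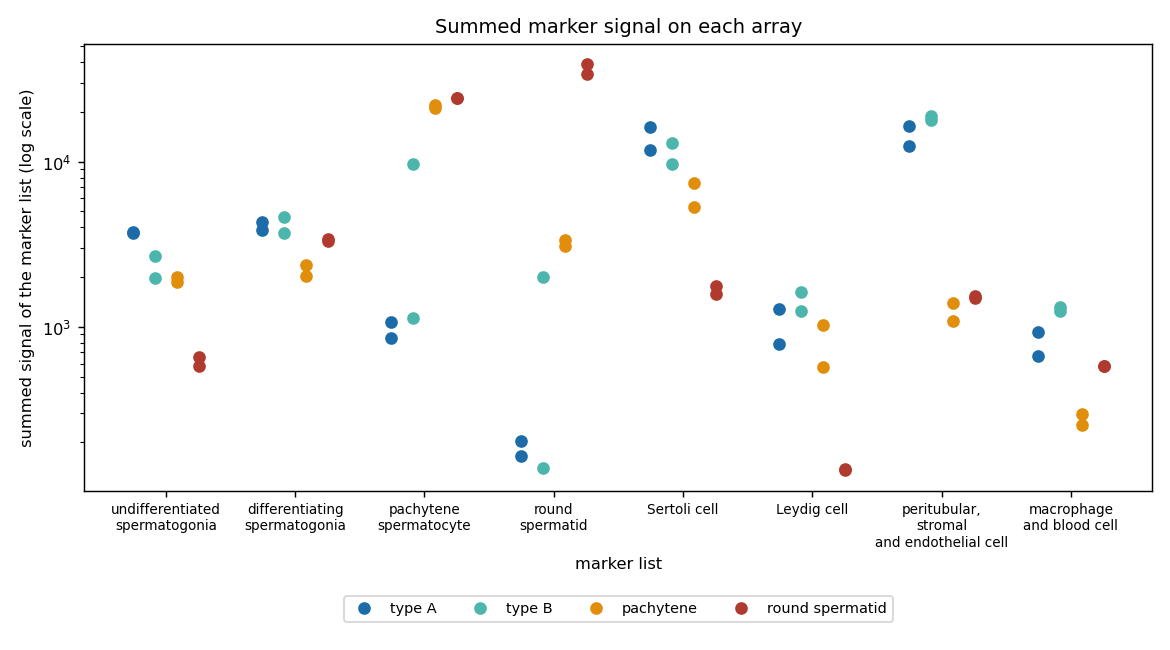
Summed signal of each marker list (log scale) on each array, with 1 point per array coloured by stage. The peritubular, stromal and endothelial sum lies between 12368.0 and 18971.3 for spermatogonia and between 1084.7 and 1529.6 for later cells, and type B replicate 2 is the high type B point of the pachytene and round spermatid lists.

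On the deposited scaling, most signalling genes were highest before meiosis. Of the 35 tested, 17 had their highest group mean in type A and 10 in type B, which is 48.6% and 28.6%, against 31.8% and 18.4% of all genes. In 20 of 35 the 4 spermatogonial arrays lay above all 4 later arrays (57.1%, against 34.6% of all genes). Of these, Bmp1, Bmp2, Bmp5 and Tgfb2 exceeded the array median only on spermatogonial arrays, and Bmp2 only on those of type B. They were tested only because they were high there, which favoured this side of the split. The same filter applied to all genes. Only Smad9 had all spermatogonial arrays below all later ones (2.86%, against 22.8%), and it exceeded the array median only on later arrays. By the moderated F-test over the 4 stages, 26 of 35 differed (74.3%), which is no higher a share than the 78.5% of all genes.

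**Figure D2:**
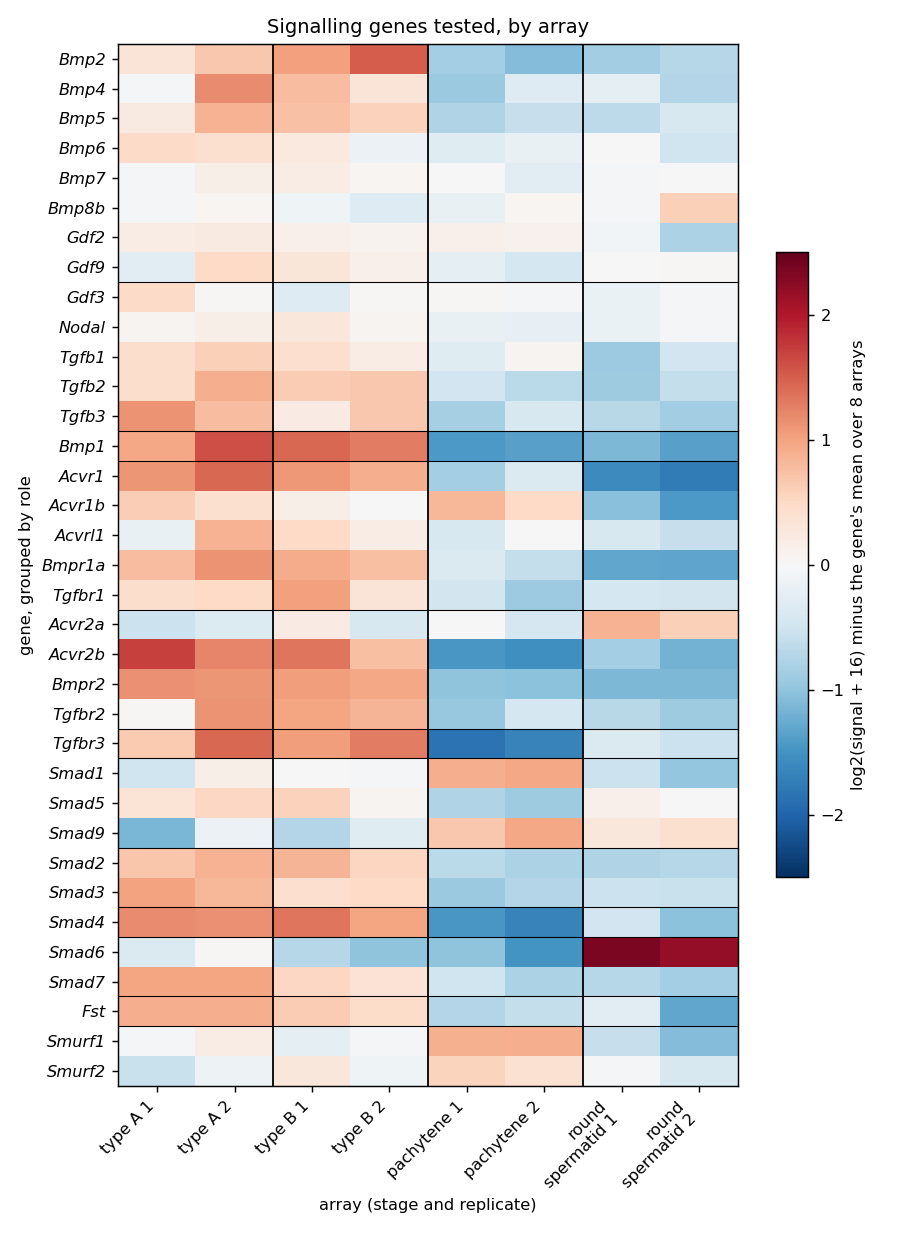
log2(signal + 16) of the 35 tested genes minus each gene's mean over the 8 arrays, with genes grouped by role and arrays ordered by stage. Of the 35, 20 are higher on all 4 spermatogonial arrays than on all 4 later ones, and Smad6 is highest in round spermatids.

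The gene with the widest span was Smad6, the inhibitory Smad that acts mainly on BMP signals. Its span between the highest and lowest group was 11.5-fold on the log2(signal + 16) scale. Its promoter is shown for that reason. Of 3 starts of Smad5, 1 is shown because it holds TGACG, a short form of the cAMP response element, which is a known promoter element of spermatid genes. That start does not hold the longer form TGACGTC, and the other Smad5 starts hold neither. Each is the 250 bases before the start, from RefSeq on GRCm38.p6, written 5′ to 3′ on the gene's strand. Smad6 lies at chr9:64022060-64022309 on the minus strand and Smad5 at chr13:56703418-56703667 on the plus strand. Capitals mark a match to TGACG, the short form of the element, on either strand.
Smad6: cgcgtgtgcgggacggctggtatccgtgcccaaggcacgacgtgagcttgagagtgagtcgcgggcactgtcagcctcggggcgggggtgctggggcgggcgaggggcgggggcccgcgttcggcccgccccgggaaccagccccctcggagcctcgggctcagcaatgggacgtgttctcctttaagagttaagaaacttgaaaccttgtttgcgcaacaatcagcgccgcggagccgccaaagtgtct
Smad5: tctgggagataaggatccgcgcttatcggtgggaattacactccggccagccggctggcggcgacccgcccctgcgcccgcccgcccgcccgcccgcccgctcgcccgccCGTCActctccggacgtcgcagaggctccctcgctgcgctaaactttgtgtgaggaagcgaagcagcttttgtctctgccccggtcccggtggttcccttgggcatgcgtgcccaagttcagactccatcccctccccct
The longer form TGACGTC, which contains TGACG, was in 914 of 32851 promoters of this length (2.78%) and in none of 41 promoters of 33 signalling genes found in the table. The short form was in 17.77% of all promoters and in 4 of the 41, or 9.8%, those of Gdf11, Smad1, Smad5 and Tgfb2. Smad6 had no match in this window. A match is a description of the letters only.

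Among BMP and GDF ligands, Bmp2, Bmp4, Bmp5 and Bmp6 fell between type A and pachytene cells, of which Bmp6 turned to 0.09 once ribosomal protein genes were used to centre the arrays. The other 4 tested ligands were not called. Bmp2 read 27.8 and 39.9 in type A, 55.5 and 83.7 in type B, 3.5 and 0.5 in pachytene cells, and 3.3 and 5.4 in spermatids. All spermatogonial arrays lay above all later ones, and the type B pair lay above the type A pair. The fall was 2.23 ± 0.24 from type B to pachytene (adjusted p = 2.33e-04) and 1.46 ± 0.24 from type A (adjusted p = 9.77e-04). Bmp5 read 36.4 to 65.5 before meiosis and 10.4 to 17.8 after, and it fell by 1.32 ± 0.25 from type B to pachytene (adjusted p = 0.00256). Bmp2 was tested only because its type B arrays exceeded the array median, and Bmp5 only because of spermatogonial arrays. This favoured the falls of both. Bmp4, known for its role in germ cell specification, read 45.8 to 127.8 and 17.1 to 37.0, and its type A arrays differed by more than the type B arrays did.

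Spermatogonial and later arrays overlapped for the other tested BMP and GDF ligands. Bmp8b, a ligand made by germ cells, read 26.0 to 38.3 in spermatogonia and 30.1 to 63.5 later, with a difference of -0.06 ± 0.25 between pachytene and type A (adjusted p = 0.842). Gdf9 read 51.1 to 99.1 and 44.2 to 66.8. Gdf2 read 50.8 to 57.8 and 20.2 to 53.2, and its lowest value was spermatid replicate 2. Bmp10, Bmp15, Bmp8a, Gdf10, Gdf5 and Gdf11 were not tested, because each was above the array median on at most 1 array.

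The 3 TGF-beta ligands, Tgfb1, Tgfb2 and Tgfb3, fell from type A to pachytene, of which Tgfb1 turned to 0.13 with ribosomal protein centring. Tgfb3 read 206.2 and 156.0 in type A, 100.8 and 146.9 in type B, 41.3 and 61.3 in pachytene cells, and 46.4 and 39.8 in spermatids. The spermatogonial arrays did not overlap the later ones. It fell by 1.55 ± 0.26 from type A to pachytene (adjusted p = 0.00104). Tgfb2 read 51.1 to 76.7 and then 10.6 to 19.3 with no overlap, and Tgfb1 read 100.5 to 139.0 and then 39.0 to 91.0. Tgfb2 was tested only because spermatogonial arrays exceeded the array median, which favoured its fall. Nodal and Gdf3, which share the activin-type receptors, differed from type A by -0.32 ± 0.19 and -0.25 ± 0.23 in pachytene cells and were not called.

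Bmp1, a protease that cuts procollagen and the BMP antagonist chordin and is no ligand, spanned 6.8-fold between its highest and lowest group. It read 118.1 and 193.3 in type A, 171.3 and 150.0 in type B, 9.4 and 10.7 in pachytene cells, and 15.8 and 10.7 in spermatids. The spermatogonial arrays were all far above the later ones. It fell by 2.76 ± 0.25 from type B to pachytene (adjusted p = 1.4e-04) and fell by 2.69 ± 0.25 from type A (adjusted p = 1.13e-04). Bmp1 was tested only because its spermatogonial arrays exceeded the array median, which favoured a fall. The stromal marker sum, which includes collagen genes, was 12368.0 to 18971.3 before this step and 1084.7 to 1401.0 after it, and its part in this result was not tested.

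Type I receptors did not share 1 pattern. Acvr1, a receptor kinase used by BMP and activin ligands, read 166.9 and 214.1 in type A, 164.0 and 144.6 in type B, 31.1 and 50.5 in pachytene cells, and 12.4 and 9.4 in spermatids. Bmpr1a, the main BMP type I receptor, read 326.2, 417.5, 363.7 and 320.1 before meiosis, 140.2 and 116.3 in pachytene cells, and 65.8 and 63.8 in spermatids. By their brightest probe sets, both stepped down at pachytene and again at spermatids, with no overlap at either step. Acvr1 fell by 1.60 ± 0.24 from type B to pachytene (adjusted p = 7.88e-04), a call lost with averaged probe sets (adjusted p = 0.111) or ribosomal protein centring (0.197), and by 1.06 ± 0.24 from pachytene to spermatid (adjusted p = 0.00938). Bmpr1a fell by 1.42 ± 0.21 from type A to pachytene and by 0.83 ± 0.21 from pachytene to spermatid (adjusted p = 0.0153). The other tested Bmpr1a probe sets were called lower at pachytene. At the spermatid step they stood at -0.30 ± 0.31, 0.04 ± 0.26 and 0.01 ± 0.33, and the other Acvr1 ones at -0.26 ± 0.26 and -0.28 ± 0.38, none called. Averaged probe sets lost both spermatid calls (adjusted p = 0.458 for Bmpr1a and 0.123 for Acvr1).

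The activin type I receptor Acvr1b read 308.3 and 260.9 in type A, 218.4 and 193.3 in type B, 358.4 and 283.2 in pachytene cells, and 86.8 and 61.5 in spermatids. The spermatid pair lay below the other 6, and the type B pair lay below the type A and pachytene pairs. It fell by 1.91 ± 0.23 from pachytene to spermatid (adjusted p = 4.84e-04), and its 0.60 ± 0.23 from type B to pachytene was not called (adjusted p = 0.052). That difference was called with quantile normalization (adjusted p = 0.0369), 75th percentile centring (0.00846), ribosomal protein centring (7.13e-04), averaged probe sets (0.00362), a pseudocount of 64 (0.0294) and the stricter filter of 4 arrays (0.0469). A dimmer Acvr1b probe set, 1422098_at, exceeded the array median only on later arrays. It rose by 1.11 ± 0.31 from type B to pachytene (adjusted p = 0.0176), and its -0.57 ± 0.31 from pachytene to spermatid was not called (adjusted p = 0.211). Tgfbr1, the TGF-beta type I receptor, read 531.8 to 875.5 before meiosis and 217.7 to 308.0 after by its brightest probe set, with no overlap. Its probe set 1420893_a_at read 28.5 to 80.3 before meiosis and differed by 0.25 ± 0.27 from type A to pachytene. Another, 1420894_at, stood at -0.91 ± 0.51, and neither was called. Averaged probe sets lost the Tgfbr1 call from type A to pachytene (adjusted p = 0.119) but kept the call from type B. By its brightest probe set, Acvrl1 read 41.4 to 102.8 and 27.5 to 49.8 and was not called in any comparison. Its other probe set, 1435825_at, was called lower in pachytene cells. It stood at -1.11 ± 0.26 from type A (adjusted p = 0.00609) and -0.86 ± 0.26 from type B (adjusted p = 0.0223). Averaged probe sets also called Acvrl1 from type A to pachytene (-0.82, adjusted p = 0.0297). Acvr1c and Bmpr1b were too dim to be tested.

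Of the type II receptors, Acvr2b, Bmpr2 and Tgfbr2 fell at pachytene and Acvr2a was not called there. Acvr2b, which binds activins and several BMPs, read 375.2 and 263.6 in type A, 284.6 and 185.0 in type B, 27.2 and 25.1 in pachytene cells, and 50.3 and 36.3 in spermatids. Bmpr2, the BMP type II receptor, read 455.6, 443.0, 425.4 and 398.1 before meiosis, then 90.6 and 88.7 in pachytene cells and 82.1 and 82.1 in spermatids. By their brightest probe sets, neither gene's spermatogonial arrays overlapped the later ones, and Bmpr2 had close replicates in every group. Acvr2b fell by 2.97 ± 0.27 from type A to pachytene (adjusted p = 1.08e-04) and Bmpr2 by 2.14 ± 0.17 (adjusted p = 8.54e-05). Another Bmpr2 probe set, 1419616_at, was also called lower, at -1.80 ± 0.24 (adjusted p = 3.97e-04). The dimmest, 1441652_at, was not called, at -0.32 ± 0.36 from type A and 0.24 ± 0.36 from type B to pachytene. Tgfbr2, the TGF-beta type II receptor, read 109.1 to 254.3 and then 47.6 to 74.7.

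Tgfbr3, or betaglycan, is a co-receptor that presents TGF-beta and binds inhibin. It read 329.8 and 582.9 in type A, 435.6 and 519.0 in type B, 45.3 and 53.5 in pachytene cells, and 154.3 and 135.2 in spermatids. The pachytene arrays were lowest and the spermatid arrays lay between them and the spermatogonia, with no overlap. It fell by 2.91 ± 0.28 from type B to pachytene (adjusted p = 1.61e-04) and rose by 1.30 ± 0.28 from pachytene to spermatid (adjusted p = 0.00784). The other probe set, 1425620_at, was called at neither step (-0.75 ± 0.33 and 0.80 ± 0.33, adjusted p = 0.0855 and 0.103). It was called lower from type A to pachytene (-1.04 ± 0.33, adjusted p = 0.0240). Its spermatid arrays, at 54.1 and 56.4, overlapped its spermatogonial ones, at 44.2 to 99.0. The stromal marker sum was 1084.7 to 1401.0 in pachytene cells and 1488.7 to 1529.6 in spermatids. The macrophage and blood cell sum was 255.7 to 298.8 and then 577.3 to 580.6. The Sertoli sum went the other way, from 5319.9 to 7434.8 in pachytene cells to 1583.9 to 1771.4 in spermatids. So did the Leydig sum, from 573.1 to 1031.8 to 135.7 to 137.7. The part of these cells in this result was not tested.

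Of the receptor Smads of the BMP branch, Smad1 and Smad9 rose at pachytene. Smad1 read 330.7 and 522.7 in type A, 477.0 and 457.5 in type B, 897.0 and 932.9 in pachytene cells, and 321.4 and 232.2 in spermatids, and the pachytene pair stood above the other 6. Smad9 read 3.7 and 22.8, 10.0 and 19.0, 53.2 and 68.4, and 36.7 and 40.7 in the same order, and its later arrays lay above all spermatogonial ones. Smad9 has 1 probe set and was tested only because its later arrays exceeded the array median. Smad1 rose by 1.11 ± 0.26 and Smad9 by 1.47 ± 0.33 from type A to pachytene (adjusted p = 0.00604 and 0.00467). Smad1 then fell by 1.69 ± 0.26 in spermatids (adjusted p = 0.00173). All 3 Smad1 probe sets were called in both directions at these steps, with log2 differences of 0.97 to 1.47 and of -2.32 to -1.69. Smad5 fell by 1.14 ± 0.22 from type B to pachytene by its brightest probe set (adjusted p = 0.00302), which ribosomal protein centring turned to 0.01, and its other probe sets, at -0.07 ± 0.19 and -0.19 ± 0.21, were not called.

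Smad2 and Smad3, the receptor Smads of the TGF-beta and activin branch, and Smad4, the partner shared by both branches, fell. Smad4 read 925.6 and 895.8 in type A, 1029.9 and 806.2 in type B, 135.0 and 114.3 in pachytene cells, and 282.6 and 187.5 in spermatids. Its spermatogonial arrays were far above the others, and the spermatid pair lay above the pachytene pair. It fell by 2.72 ± 0.24 from type B to pachytene (adjusted p = 1.39e-04). Smad2 read 477.1 to 600.3 before meiosis and 180.5 to 196.3 later, and fell by 1.51 ± 0.20 from type A to pachytene (adjusted p = 3.41e-04). Smad3 read 199.7 to 306.4 and then 68.5 to 93.9, and fell by 1.74 ± 0.19 (adjusted p = 1.64e-04). Neither pair of ranges overlapped. From type A to pachytene the other Smad2 probe set, at -0.31 ± 0.25, was not called. Nor were the other Smad3 probe sets, at -0.39 ± 0.25 and -0.46 ± 0.59. Averaging its probe sets lost the Smad3 call from type B to pachytene (log2 -0.35, adjusted p = 0.314) but kept the call from type A.

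The inhibitory Smads parted in spermatids. Smad6 read 124.8 and 167.0 in type A, 94.3 and 74.0 in type B, 73.6 and 48.1 in pachytene cells, and 907.8 and 805.1 in spermatids. Both spermatid arrays stood far above the other 6, and type A lay above type B and pachytene cells. Smad6 fell by 1.08 ± 0.25 from type A to pachytene (adjusted p = 0.00513), a call lost after quantile normalization (adjusted p = 0.0525) or ribosomal protein centring (0.433), and rose by 3.52 ± 0.25 from pachytene to spermatid (adjusted p = 5.9e-05). It has 1 probe set on the array. Smad7, which blocks receptors of both branches, read 167.5 to 268.0 before meiosis and 62.6 to 84.7 later, and fell by 1.64 ± 0.19 from type A to pachytene (adjusted p = 2.35e-04).

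**Figure D3:**
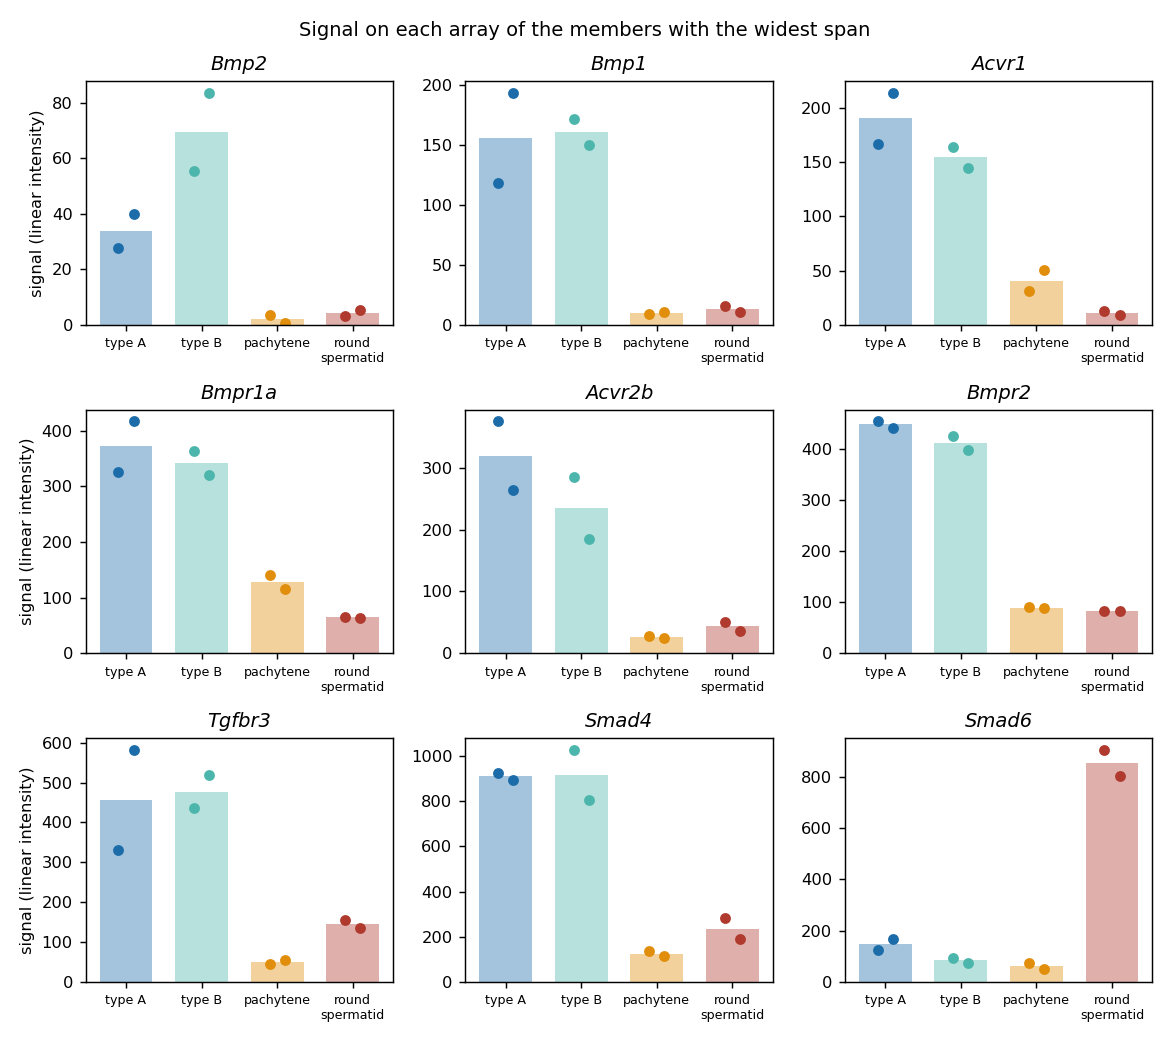
Signal (linear intensity) on each array of the 9 genes whose group means span at least 4-fold on the log2(signal + 16) scale; bars are group means of 2 arrays and points are arrays. In 8 of the 9 the spermatogonial arrays lie above all later ones, and Smad6 reads 907.8 and 805.1 in round spermatids.

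The Smurf ubiquitin ligases, which mark Smads and receptors for degradation, were highest in pachytene cells. By its brightest probe set, Smurf1 read 210.3 and 251.5 in type A, 184.3 and 213.4 in type B, 417.7 and 426.0 in pachytene cells, and 142.6 and 94.2 in spermatids, so that the pachytene pair stood above and the spermatid pair below all others. It rose by 1.03 ± 0.23 from type B to pachytene (adjusted p = 0.00564) and fell by 1.73 ± 0.23 in spermatids (adjusted p = 8.35e-04). Smurf2 read 286.1 to 523.4 in spermatogonia, 634.6 and 562.8 in pachytene cells, and 416.0 and 321.4 in spermatids. It rose by 0.81 ± 0.24 from type A to pachytene (adjusted p = 0.0191), and its -0.68 ± 0.24 in spermatids was not called (adjusted p = 0.062). Follistatin, encoded by Fst, traps activins and read 80.3 to 116.5 before meiosis and 12.6 to 43.0 after, falling by 1.58 ± 0.32 from type A to pachytene (adjusted p = 0.00282), while Nog was too dim to be tested.

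Between type B and type A spermatogonia no signalling gene was called, and neither was any of the 14155 genes by limma (0% higher and 0% lower). At an unadjusted p under 0.05, 1 signalling gene was higher and 3 were lower, and the smallest adjusted p among the 35 was 0.487. That gene was Bmp2, at 0.77 ± 0.24. Bmp2 exceeded the array median only on the 2 type B arrays. It was tested only because it was high there, which favoured a higher value in type B, with all arrays or with 1 left out. Without type B replicate 1 it was called (a log2 change of 1.01, adjusted p = 0.0383), or 2.86% of the 35, where 8.18% of all genes were called higher. That fit sets type B replicate 2, the array with later-stage markers, alone against type A and assumes that it varies like the other groups.

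From type B to pachytene, 19 of 35 signalling genes fell (54.3%, against 32.7% of all genes) and 3 rose, Smad1, Smad9 and Smurf1 (8.57%, against 25.5%). Of those that fell, Bmp1, Bmp2, Bmp5 and Tgfb2 passed the filter only through spermatogonial arrays, and Smad9, which rose, only through later ones. The filter favoured these calls. The median log2 difference of the 35 was -1.08 beside -0.07 for all genes, and it was 0.07 beside 1.08 with ribosomal protein centring of the arrays. That centring raised the median of all genes by 1.15, so the signalling genes lay about as far below it. It left 6 lower and 13 higher, against 9.59% and 59.7% of all genes. Without type B replicate 2, the array with later-stage markers, 19 fell and 3 rose. Without pachytene replicate 1, Fst, Smad1 and Tgfb3 missed the threshold (adjusted p = 0.0639, 0.0587 and 0.0683), and without pachytene replicate 2 Smad1 and Smad9 did (0.0695 and 0.0558), which left 1 that rose. Bmp4 (adjusted p = 0.0392) was lost without type B replicate 1 (0.126), either pachytene array (0.203 and 0.0515) or either spermatid array (0.0583). It was also lost with quantile normalization (0.116), 75th percentile centring (0.116), ribosomal protein centring (0.967) or a pseudocount of 64 (0.0587).

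From type A to pachytene, 22 of 35 fell (62.9%, against 35.6% of all genes) and 4 rose, Smad1, Smad9, Smurf1 and Smurf2 (11.4%, against 27.2%). This comparison shares its pachytene arrays with the one above, and the filter favoured calls of the same genes. The median was -1.21 beside -0.14 for all genes, and -0.44 beside 0.63 with ribosomal protein centring, which left 11 lower and 7 higher. Bmp6 and Tgfb1, with adjusted p = 0.034 and 0.041, kept neither their call nor their sign under that centring (log2 0.09 and 0.13). Bmp6 also lost its call without any 1 of the 4 arrays compared (adjusted p = 0.0856 to 0.143), and Tgfb1 without either type A array or pachytene replicate 1 (0.079, 0.152 and 0.231). Without type A replicate 2 or pachytene replicate 1, Bmp4 (adjusted p = 0.207 and 0.178) and Tgfbr2 (0.0715 and 0.0929) were lost. Smurf1 and Smurf2 were lost without type A replicate 1 (adjusted p = 0.0736 and 0.116), pachytene replicate 1 (0.0569 and 0.101) or pachytene replicate 2 (0.0627 and 0.0536), each of which left 2 that rose.

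**Figure D4:**
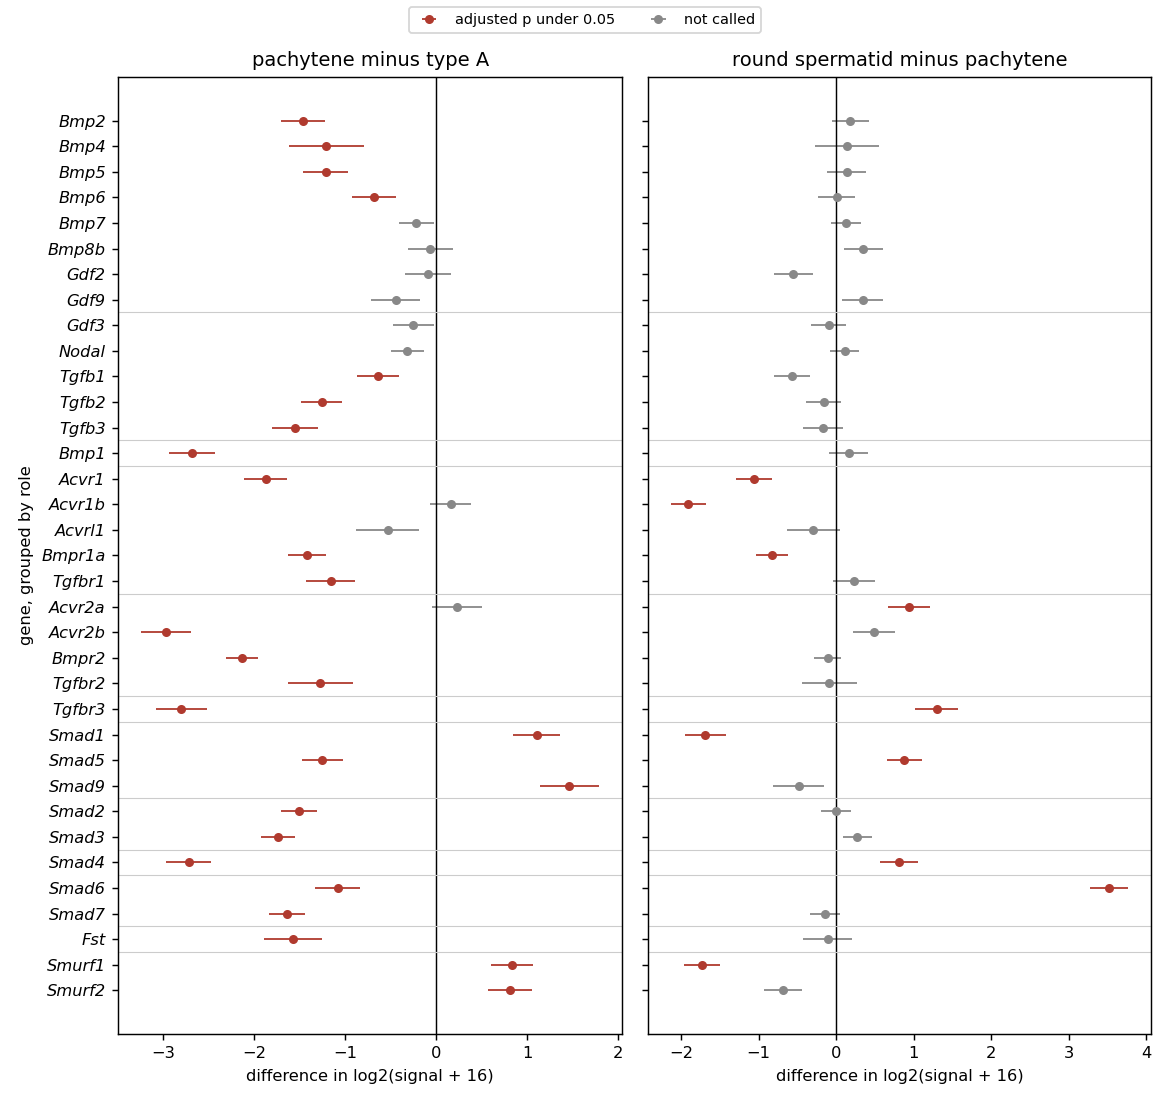
Difference in log2(signal + 16) between pachytene and type A (left) and between round spermatid and pachytene (right) for the 35 tested genes by role; points are fitted differences, bars are standard errors and red marks an adjusted p under 0.05. On the left 22 red points are below 0 and 4 above, and with ribosomal protein centring of the arrays 11 are called lower and 7 higher; on the right 5 are on each side.

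From pachytene cells to round spermatids 5 of 35 rose, Smad6, Tgfbr3, Acvr2a, Smad5 and Smad4, and 5 fell, Acvr1b, Smurf1, Smad1, Acvr1 and Bmpr1a. Each is 14.3%, against 15.9% of all genes higher and 19% lower, so the counts were near the background. Acvr2a, an activin type II receptor, read 151.8 and 107.4 in pachytene cells and 288.5 and 235.7 in spermatids, a rise of 0.94 ± 0.27 (adjusted p = 0.0275). Smad5 read 68.0 and 59.7 and then 138.0 and 124.1, a rise of 0.88 ± 0.22 (adjusted p = 0.0166). Neither pair overlapped. Smad4 rose by 0.81 ± 0.24 (adjusted p = 0.0329) by its brightest probe set. Its other probe sets, 1422485_at and 1422486_a_at, stood at 0.32 ± 0.19 and 0.13 ± 0.22 and were not called (adjusted p = 0.248 and 0.712). The Sertoli marker sum was 5319.9 to 7434.8 before this step and 1583.9 to 1771.4 after it, and its part in the 5 falls was not tested.

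Only Smad6, Acvr1b, Smad1 and Smurf1 of these 10 kept their call without each array in turn. Without round spermatid replicate 1, Smad6 alone was called as a rise, and Smad4, Smad5, Acvr2a, Tgfbr3 and Bmpr1a missed the threshold (adjusted p = 0.199, 0.0931, 0.149, 0.0564 and 0.0675). Without round spermatid replicate 2, Smad5, Acvr2a, Acvr1 and Bmpr1a did (0.0648, 0.0736, 0.0691 and 0.0827). Without pachytene replicate 1, Smad4, Smad5, Tgfbr3 and Bmpr1a did (0.0879, 0.0636, 0.0577 and 0.112), and without pachytene replicate 2, Smad4, Smad5, Acvr2a and Acvr1 did (0.169, 0.101, 0.174 and 0.077). Smad4 was also lost without either type A array (0.0505).

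Probe sets of 1 gene did not always move together. When each of 24514 probe sets was tested alone, 69 belonged to signalling genes. From type B to pachytene 34 of the 69 fell and 8 rose (49.3% and 11.6%, against 31.5% and 22.2% of all probe sets). From type A to pachytene 39 fell and 8 rose (56.5% and 11.6%, against 35.9% and 23.7%). From pachytene to spermatid 9 fell and 7 rose (13% and 10.1%, against 18% and 12.7%), and 48 differed among the 4 stages (69.6%, against 74.1%). Of 22 genes with several tested probe sets, 3 had mixed signs from type A to pachytene and 8 from pachytene to spermatid. The sources used here do not say which transcripts each probe set reads.

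The genes described next were chosen after their values were seen. Smad5 was called both ways from pachytene to spermatid, with 1451873_a_at at 0.88 ± 0.23 (adjusted p = 0.0207) and 1433641_at at -0.80 ± 0.19 (adjusted p = 0.0141). The second read 125.8 and 112.2 in pachytene cells and 60.9 and 62.2 in spermatids, the reverse of the first. For Tgfbr1, 1420893_a_at read 49.0 and 56.0 in pachytene cells and 232.6 and 260.7 in spermatids, with no overlap. It rose by 1.94 ± 0.27 (adjusted p = 0.00124), while the brightest probe set, 1420895_at, differed by 0.24 ± 0.27 (adjusted p = 0.576).

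Acvr2a, Bmp7, Acvr1 and Smurf1 also depended on the probe set, as did Smad2, Smad3, Smad4, Bmpr1a, Bmpr2, Acvr1b, Acvrl1 and Tgfbr3 described above. For Acvr2a, 1437382_at read 184.7 and 141.7 in type A and 93.3 and 57.2 in pachytene cells and fell by 0.99 ± 0.29 (adjusted p = 0.0165), whereas 1451004_at, the brightest, differed by 0.23 ± 0.27 (adjusted p = 0.496). Bmp7, a ligand of BMP receptors, was not called by its brightest probe set, 1435479_at, which read 96.6 to 113.1 in spermatogonia and 77.8 to 97.1 later. By 1418910_at it read 123.5 and 147.3 in type A and 12.3 and 19.7 in pachytene cells, a fall of 2.25 ± 0.25 (adjusted p = 2.11e-04). The third, 1432410_a_at, fell by 2.02 ± 0.24 (adjusted p = 2.55e-04). From type A to pachytene, Acvr1 was called by 1448460_at, and its other probe sets differed by 0.03 ± 0.26 and -0.63 ± 0.38. From type B to pachytene these stood at 0.64 ± 0.26 and -0.48 ± 0.38, neither called. For Smurf1, 1428396_at read 49.4 to 125.5 in spermatogonia, 334.0 and 402.0 in pachytene cells and 316.8 and 226.5 in spermatids. It placed spermatids above spermatogonia, unlike the brightest probe set, and its -0.43 ± 0.36 from pachytene to spermatid was not called (adjusted p = 0.416). With the mean of all probe sets of a gene, Acvr1, Acvr2a, Bmpr1a, Smad4 and Smad5 were not called from pachytene to spermatid (adjusted p = 0.123, 0.226, 0.458, 0.0948 and 0.984), and Tgfbr1 was (1.03, adjusted p = 0.0361).

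**Figure D5:**
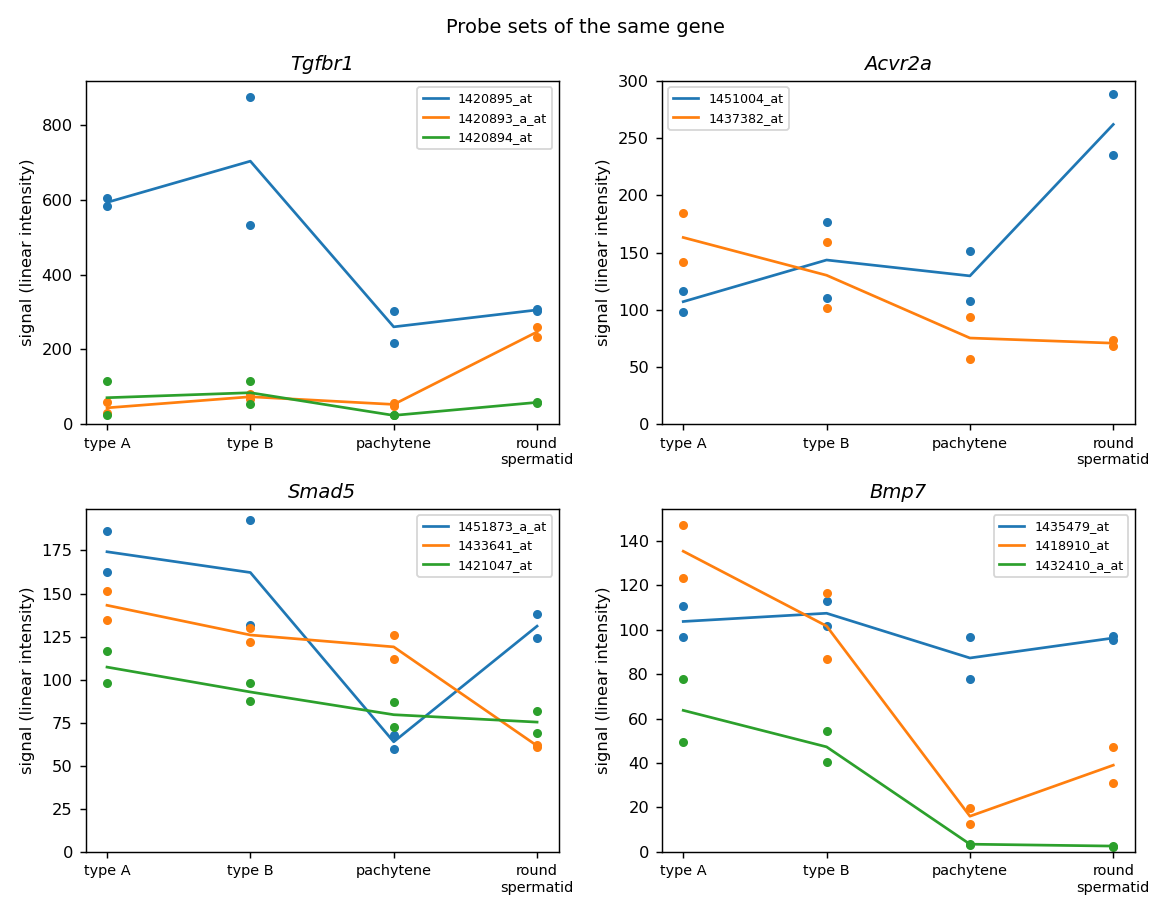
Signal (linear intensity) of each probe set of Tgfbr1, Acvr2a, Smad5 and Bmp7 by stage; points are arrays and lines join group means of 2 arrays. Smad5 probe sets 1451873_a_at and 1433641_at move in opposite directions from pachytene to spermatid, and the brightest Bmp7 probe set does not show the fall of the others; heights of different probe sets are not comparable.

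Other genes of the pathway were listed from textbook knowledge, with earlier results of these data known. Of 64 tested, 40 fell and 8 rose from type A to pachytene (62.5% and 12.5%, against 35.6% and 27.2% of all genes), with a median of -1.09 beside -0.14 for all genes. Among further ligands and their processing 10 of 12 fell (83.3%), including Ltbp4 and Ltbp1, which tether latent TGF-beta in the matrix (-3.56 ± 0.26 and -2.55 ± 0.28), the convertase Pcsk5 (-3.15 ± 0.26) and Amh, the anti-Müllerian hormone of Sertoli cells (-2.55 ± 0.38). Inha, the inhibin alpha chain of Sertoli cells, read 1705.6 and 1356.2 in type A, 414.7 and 619.1 in pachytene cells and 177.6 and 218.9 in spermatids. Amh is also 1 of the 14 Sertoli markers.

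Among further receptors and co-receptors 3 of 7 fell and 1 rose (42.9% and 14.3%), a share of falls near that of all genes. Rgmb, a BMP co-receptor, fell by 1.98 ± 0.24 and Hjv, its relative known from iron control, rose by 1.42 ± 0.18. Among further secreted antagonists 6 of 9 fell and 1 rose (66.7% and 11.1%). The follistatin-like Fstl1 fell by 4.46 ± 0.31, from 868.1 and 1753.5 in type A to 42.3 and 39.6 in pachytene cells, and the nodal antagonist Dand5 rose by 2.78 ± 0.34, from 23.8 and 5.7 to 163.0 and 213.1.

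Of 21 intracellular regulators 11 fell and 4 rose from type A to pachytene (52.4% and 19%). Xiap, which also links BMP receptors to TAK1, fell by 3.21 ± 0.21. Wwp1, a ubiquitin ligase of the pathway, fell by 2.28 ± 0.35. The Smad co-repressors Tgif2 and Ski stood at -2.26 ± 0.18 and -2.13 ± 0.19. Of 15 response genes 10 fell and 2 rose (66.7% and 13.3%). Ccn2, Junb and the BMP target Id3 fell, with log2 changes of -4.07 ± 0.28, -3.37 ± 0.39 and -2.82 ± 0.40, while Atoh8 rose by 3.09 ± 0.22, from 8.7 and 9.7 in type A to 202.9 and 193.0 in pachytene cells. The other that rose was Id4, of the same family as Id3, by 2.40 ± 0.28, from 197.1 and 314.5 to 1460.1 and 1320.6, and it is also in the undifferentiated spermatogonial list. From pachytene to spermatid 8 of the 64 rose and 9 fell (12.5% and 14.1%), no more than the 15.9% and 19% of all genes.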

How the data were processed

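Total RNA of 4 germ cell stages was measured on 8 arrays, 2 a group, grouped by the sample titles. The authors deposited 1 linear intensity per probe set and array, and the submitters' processing notes name MAS5. Its version and detection calls are not given in the sources used. Because arrays were scaled to a common mean, every change is relative to other genes. Precision is limited by the number of arrays.

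Gene names came from the platform annotation, brought up to date by Entrez identifier from a gene table of GRCm38.p6. Of 45101 probe sets, 64 were controls, 34945 listed 1 gene, 932 several and 9160 none; 34741 of those with 1 gene matched the table and 204 did not. Probe sets with several genes were not used. The brightest probe set by mean stood for a gene, which was tested when above the array median on at least 2 of 8 arrays.

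Comparisons used limma 3.58.1 (R 4.3.3) across all genes (lmFit on log2(signal + 16), 1 mean per group over all 8 arrays, eBayes without trend, 4 residual and 4.01 prior degrees of freedom). Tests were two-sided with Benjamini-Hochberg adjustment within a comparison. The fit was tested on simulated data. Alternatives were quantile normalization, centring on the 75th percentile or on ribosomal protein genes, pseudocounts of 1 and 64, other filters, probe sets singly or averaged, a trend, only the groups compared, a replicate block and each array left out.

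Full statistics went to the up to 12 called genes with the largest change per comparison, values on each array to called genes spanning at least 4-fold, and up to 4 called genes per further pathway list from type A to pachytene. Per-array values of Smad1, Smad9, Acvr1b, Acvr2a, Smad5, Smurf1, Smurf2, Tgfb3, Inha and Id4, and statistics beyond the 12, were added after their values were seen. The signalling genes and all lists were chosen with earlier results of these data known.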

Additional observations from a re-analysis of the deposited data

How the results depend on the processing

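Of 179 counts of signalling genes recomputed under the alternatives, 156 stayed within 1.5 times the value reported and 23 did not. From type B to pachytene the number that rose was 3, and it was 5 with arrays centred on their 75th percentile, 13 with ribosomal protein centring, 8 of 69 probe sets tested singly, and 1 to 3 with 1 array left out. The number that fell was 19, and 6 with ribosomal protein centring, 34 probe sets, and 16 to 20 with 1 array left out. From pachytene to spermatid the 5 that rose became 3 with ribosomal protein centring or with averaged probe sets and 1 to 5 with 1 array left out, and the 5 that fell became 9 probe sets and 3 to 6. From type A to pachytene the 4 that rose became 7 with ribosomal protein centring, 8 probe sets and 2 to 4 with 1 array left out, and the 22 that fell became 11, 39 and 18 to 22. The 26 that differed among stages became 48 probe sets and 24 to 28. Between type B and type A, 0 to 1 rose with 1 array left out. The probe set counts are over 69 tested units in place of 35, and the cause of the other shifts was not tested.

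Of 1154 recomputed changes of called genes, 1055 kept direction and call, 94 kept direction only and 5 turned, all with ribosomal protein centring. These were Smad5 (0.01), Smad7 (0.07) and Tgfb3 (0.10) from type B to pachytene, and Bmp6 (0.09) and Tgfb1 (0.13) from type A. Calls kept under every alternative that tested the gene were 7 of 22 from type B to pachytene (Acvr2b, Bmp1, Bmp2, Bmpr2, Smad4, Smurf1 and Tgfbr3), 4 of 10 from pachytene to spermatid (Acvr1b, Smad1, Smad6 and Smurf1) and 13 of 26 from type A to pachytene. Bmp2 was not tested when a gene had to exceed the array median on at least 4 of 8 arrays. Where probe sets were tested singly, only the brightest probe set of a gene counted here. Quantile and 75th percentile scaling raised the median of all genes by 0.15 and 0.32 from type B to pachytene, and by 0.21 and 0.38 from type A. All genes then split into 29% higher and 27.7% lower, and 35.5% and 24.8%, from type B, and into 31.4% and 30.3%, and 37.4% and 26.5%, from type A. Ribosomal protein centring gave 45.7% and 16.6% from type A.

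Replicate numbers did not pair the samples. Over 14155 genes the deviations of same-numbered arrays correlated at -0.175 to 0.169. With the replicate number as a block, 4 signalling genes rose and 18 fell from type B to pachytene, 5 and 5 changed from pachytene to spermatid, 4 and 22 from type A to pachytene, 25 differed among stages and 0 from type A to type B. From type B to pachytene the block lost Bmp4 (adjusted p = 0.0524) and called Acvr1b (0.0275). The deposited values hold no background measure, so no detection limit could be set for the dim genes.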
